A study of Rattus norvegicus with 16 samples.

Results

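Genes that are best known from blood vessel lining cells and from the basement membrane under them were read in microglia sorted from rat brains. The 10 genes were Pecam1, Cdh5, Cldn5, Jam2, Tek, Flt1, Kdr, Mmrn2, Col4a1 and Col4a2, and a gene entered by its symbol in the count table. A row was found for 9 of the 10 among 21842 symbols, all 9 passed the filter on low counts, and they are 9 of the 13608 genes tested. Cldn5, the claudin of the blood-brain barrier, had no row under that symbol and was not analysed here. The table comes from 16 libraries of microglia from whole brains of male Wistar rats (Hsd/Cpb:WU), 4 per group. The rats had been exposed to X-rays (14 Gy) or sham-treated and were injected intraperitoneally 6 weeks later with LPS, the endotoxin of bacterial outer membranes and a strong stimulus for macrophages, or with its vehicle PBS. The groups are irradiated LPS, irradiated PBS, sham LPS and sham PBS. Brains were dissociated mechanically in the cold and live cells with high CD11b and intermediate CD45 were sorted, so every group shares that gate. The labels name no animals, so p-values measure the spread between these libraries, which may be in part technical.

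Endothelial cells hold one another through adhesion and junction proteins, sense growth factors through VEGF receptors and the angiopoietin receptor Tie2, and rest on a sheet of type IV collagen and laminin. Several of these genes are also transcribed in cells of the blood and macrophage lineages. Pecam1 is an adhesion molecule of endothelium, platelets and leukocytes, Flt1 is the VEGF receptor of monocytes as well as of vessels, and Tek marks a class of monocytes. The type IV collagen chains are secreted as a trimer of Col4a1 and Col4a2 products, and the genes of both chains lie head to head in mammalian genomes.

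Promoter sequences were taken from RefSeq (build GRCr8, 250 bases before and 50 after the gene start), which held 7 of the 10 genes. The deposited counts were made on mRatBN7.2, and no coordinate was carried between builds. The Col4a1 sequence is shown because Col4a1 and Col4a2 moved together in the data. The starts of both genes are 76 bases apart on opposite strands of chromosome 16, their promoter windows share 176 bases, and the capitals mark the 76 bases between the starts. G and C made up 75% of this window.
Col4a1, chr16:84885347-84885646, plus strand: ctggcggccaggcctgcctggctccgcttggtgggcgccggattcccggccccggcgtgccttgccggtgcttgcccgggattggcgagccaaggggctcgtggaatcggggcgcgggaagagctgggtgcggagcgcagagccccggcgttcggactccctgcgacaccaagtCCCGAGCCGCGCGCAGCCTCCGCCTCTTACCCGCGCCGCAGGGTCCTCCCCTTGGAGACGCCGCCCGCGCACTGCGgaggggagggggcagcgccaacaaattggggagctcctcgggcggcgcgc
The other 3 sequences belong to genes that the results turn on. In them capitals mark AGGAAG or its complement CTTCCT, a motif bound by ETS-family factors, which act in both endothelial and myeloid cells.
Jam2, chr11:37317310-37317609, plus strand: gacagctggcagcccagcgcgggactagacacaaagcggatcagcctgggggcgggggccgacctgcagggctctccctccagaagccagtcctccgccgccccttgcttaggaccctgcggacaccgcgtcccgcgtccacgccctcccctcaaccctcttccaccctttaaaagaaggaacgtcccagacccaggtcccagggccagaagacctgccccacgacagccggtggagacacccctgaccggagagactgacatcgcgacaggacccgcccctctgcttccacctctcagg
Mmrn2, chr16:9711955-9712254, plus strand: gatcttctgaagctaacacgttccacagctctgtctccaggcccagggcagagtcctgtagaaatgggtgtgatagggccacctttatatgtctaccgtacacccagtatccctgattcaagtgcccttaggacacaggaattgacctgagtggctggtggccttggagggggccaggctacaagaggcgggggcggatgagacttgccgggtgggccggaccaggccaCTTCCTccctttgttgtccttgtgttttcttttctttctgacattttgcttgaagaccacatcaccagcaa
Flt1, chr12:12333180-12333479, plus strand: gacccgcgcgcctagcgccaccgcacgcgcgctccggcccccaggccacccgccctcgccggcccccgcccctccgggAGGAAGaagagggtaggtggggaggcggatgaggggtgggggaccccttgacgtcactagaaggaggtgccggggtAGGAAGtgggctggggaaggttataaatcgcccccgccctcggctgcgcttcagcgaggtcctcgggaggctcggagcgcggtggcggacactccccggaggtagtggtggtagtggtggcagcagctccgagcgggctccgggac
Flt1 held 2 matches and Mmrn2 held 1, which lay 21 bases before the gene start. No match was found in the windows of Jam2, Kdr, Cldn5, Col4a1 and Col4a2, so 2 of 7 genes had the motif. Of 33469 rat promoters of the same length 34.5% held it on either strand, and a match describes letters and no binding.

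Libraries held 18997145 to 62745496 counts in irradiated LPS, 14309458 to 25015047 in irradiated PBS, 16573558 to 19785105 in sham LPS and 16849603 to 22482126 in sham PBS. Levels are given as CPM, read counts relative to the TMM-scaled library size, and their error as the SD over a group's 4 libraries, and each comparison as a log2 fold change ± its SE. "Called" means a Benjamini-Hochberg adjusted p under 0.05 in edgeR's quasi-likelihood test over all 13608 genes. The sorted cells carried microglial genes: Cx3cr1, the fractalkine receptor of microglia, had at least 3807 CPM in every library. The 2 irradiated libraries numbered 1 stood apart with neuronal genes, whose summed level was 99.8 CPM in irradiated LPS 1 and 65.4 CPM in irradiated PBS 1, against 10.3 to 41.5 CPM in the other 14, and irradiated LPS 1 also with neutrophil genes. Counts of called genes are therefore also given without these 2.

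Several genes that define endothelium had counts at or near 0 in libraries where most of the 9 genes were well measured. Of 28 endothelial identity genes with a row, 15 passed the filter on low counts, 11 stayed below 1 CPM in all 16 libraries and 9 had a count of 0 in at least 10. Erg, a transcription factor of endothelium, was at 0 in 12 libraries and had at most 3 counts. Picked after their values were seen, Sox18 was at 0 in all 16 libraries, Clec14a in 14 and Robo4 in 13. Emcn, picked likewise but counted below with the junction and adhesion genes, was at 0 in 15. Other vessel genes of the identity list, picked in the same way, were present, with up to 28.3 CPM of Egfl7, 15.2 CPM of Plvap, 6.66 CPM of Slco1c1 and 5.33 CPM of Slco1a4. Further genes of the identity list, also picked after their values were seen, reached more. These include Pltp (up to 1450 CPM), Abcg2 (327 CPM), Eng (299 CPM), Slc2a1 (206 CPM) and Itm2a (98.6 CPM). Of 14 pericyte and smooth muscle genes with a row, 8 stayed below 1 CPM in all libraries and 6 had a count of 0 in at least 10. Pdgfrb, the receptor that marks pericytes, did not pass 0.818 CPM and Kcnj8 was at 0 in 15 libraries, whereas Cspg4 reached 98.2 CPM, Anpep 15.2 CPM, Vtn 12.7 CPM and Myh11 3.91 CPM. In the same libraries the 9 genes summed to between 229 and 1196 CPM, and the endothelial identity list to between 1340 and 2416 CPM. For bulk libraries such as these, fewer cells of a type and less RNA per cell cannot be told apart.

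Irradiation moved most of the set. With PBS, 6 of the 9 genes were called between irradiated and sham rats: Pecam1, Cdh5, Jam2, Mmrn2 and Tek fell and Kdr rose. The genes were chosen with earlier results of these data known, so background shares are given for scale and an excess over them was not tested. The background was 21.4% of all genes called, 9.91% lower and 11.5% higher, against 5 of 9 lower and 1 of 9 higher here. The higher one, Kdr, had nearly all its counts in irradiated libraries and passed the filter on low counts through them, so nothing is read from its calls or its lack of overlap against the background. With LPS, all 9 were called, 7 lower and 2 higher, against a background of 27.7% called, 12.6% lower and 15.1% higher. The median log2 fold change of the 9 was -1.07 with PBS and -1.61 with LPS, and that of all genes was -0.00461 and 0.01. LPS called 2 of the 9 in irradiated rats, Jam2 and Flt1, and 1 of the 9 in sham rats, Jam2. Of all genes it called 31.4% (17.0% higher, 14.5% lower) in irradiated and 29.6% (15.2% higher, 14.5% lower) in sham rats. The calls of Jam2 and Flt1 were increases, and counts this small are not read against the background. Irradiated and sham libraries did not overlap for 5 lower genes and 1 higher gene with PBS, and for 7 and 1 with LPS, against 12.9% and 13.9% of all genes with PBS and 11.6% and 15.0% with LPS. Without the 2 irradiated libraries numbered 1, the irradiation counts were 6 of 9 with PBS (5 lower, 1 higher) and 6 of 9 with LPS (5 lower, 1 higher).

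**Figure D1:**
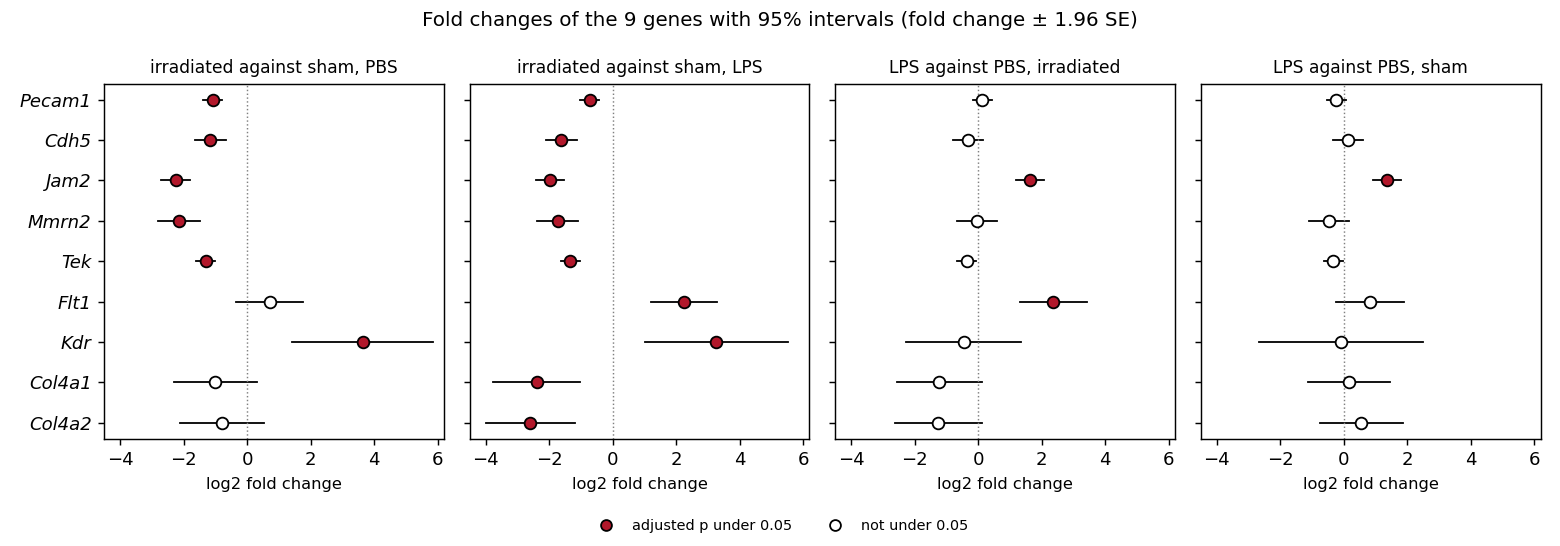
Log2 fold changes of the 9 genes (horizontal axis, log2 units) in the 4 pairwise comparisons, with bars for 95% intervals and filled points for an adjusted p under 0.05. In both irradiation panels Pecam1, Cdh5, Jam2, Mmrn2 and Tek lie left of 0, Kdr lies right of 0, and the LPS panels have filled points for Jam2 (both) and Flt1 (irradiated rats).

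Of the members, the adhesion and junction genes Pecam1, Cdh5 and Jam2 were lower in irradiated libraries with either injection. Pecam1 (ENSRNOG00000066008), which encodes the adhesion molecule PECAM-1 or CD31, had 73.4, 88.9, 120.9 and 90.4 CPM in irradiated PBS libraries and 205.6, 161.0, 229.8 and 189.4 CPM in sham PBS libraries. It had 78.3, 126.3, 111.4 and 93.6 CPM in irradiated LPS libraries and 178.4, 172.0, 163.1 and 158.5 CPM in sham LPS libraries. All 8 irradiated libraries lay below all 8 sham libraries. Pecam1 fell by 1.07 ± 0.15 on the log2 scale with PBS (2.10-fold lower, adjusted p = 5.65e-05) and by 0.71 ± 0.15 with LPS (1.64-fold lower, adjusted p = 0.00162). LPS did not move it past the threshold in either setting: the log2 fold change was 0.13 ± 0.15 in irradiated and -0.23 ± 0.15 in sham rats.

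Cdh5 (ENSRNOG00000013324) encodes VE-cadherin, the adherens junction cadherin of vessels. It had 14.99, 9.99, 17.17 and 10.28 CPM in irradiated PBS libraries, and 25.24, 25.02, 34.14 and 32.27 CPM in sham PBS libraries. With LPS it had 6.10, 13.66, 10.65 and 11.06 CPM in irradiated libraries, and 23.06, 25.80, 37.60 and 40.88 CPM in sham libraries. Again no irradiated library reached a sham library. The log2 fold change was -1.16 ± 0.24 with PBS (adjusted p = 0.00214) and -1.61 ± 0.25 with LPS (adjusted p = 7.45e-05). The raw counts behind these levels ran between 119 and 842 per library.

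Jam2 (ENSRNOG00000042848), a junctional adhesion molecule that also binds leukocyte integrins, was the member that irradiation lowered and LPS raised. It had 57.5, 40.6, 41.0 and 43.7 CPM in irradiated PBS libraries and 225.4, 222.8, 213.9 and 202.9 CPM in sham PBS libraries. With LPS it had 86.3, 136.4, 155.2 and 184.8 CPM in irradiated libraries and 615.6, 493.1, 358.8 and 752.2 CPM in sham libraries. No 2 of the 4 groups overlapped, and the order of the means was irradiated PBS (45.7 ± 7.97 CPM), irradiated LPS (141 ± 41.4), sham PBS (216 ± 10.2) and sham LPS (555 ± 168). Jam2 fell by 2.24 ± 0.23 after irradiation with PBS (4.73-fold lower, adjusted p = 3.93e-06) and by 1.98 ± 0.23 with LPS (3.94-fold lower, adjusted p = 7.14e-06). LPS raised it by 1.62 ± 0.23 in irradiated rats (adjusted p = 4.54e-05) and by 1.36 ± 0.22 in sham rats (adjusted p = 0.000257). The LPS responses differed by 0.26 on the log2 scale, with an interval of -0.34 to 0.87 and an adjusted p of 0.826.

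Mmrn2 (ENSRNOG00000051977) encodes multimerin 2, a glycoprotein that endothelium secretes into its matrix and that binds the receptors CD93 and CLEC14A. It had 16.92, 12.21, 10.00 and 14.77 CPM in irradiated PBS libraries and 79.86, 78.74, 33.54 and 48.06 CPM in sham PBS libraries. With LPS it had 5.74, 17.60, 16.57 and 12.24 CPM in irradiated libraries and 31.86, 55.35, 48.72 and 37.80 CPM in sham libraries. The sham PBS libraries spread widely, yet the lowest of them was higher than every irradiated library. The log2 fold change was -2.16 ± 0.34 with PBS (4.46-fold lower, adjusted p = 0.000242) and -1.72 ± 0.33 with LPS (3.30-fold lower, adjusted p = 0.000975). Cd93, which encodes one of its receptors, moved the other way, at 3.01 ± 0.45 with PBS and 3.19 ± 0.45 with LPS, and had 4.45 to 10.0 CPM in irradiated LPS, 3.36 to 8.02 CPM in irradiated PBS, 0.303 to 1.38 CPM in sham LPS and 0.506 to 1.03 CPM in sham PBS libraries.

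**Figure D2:**
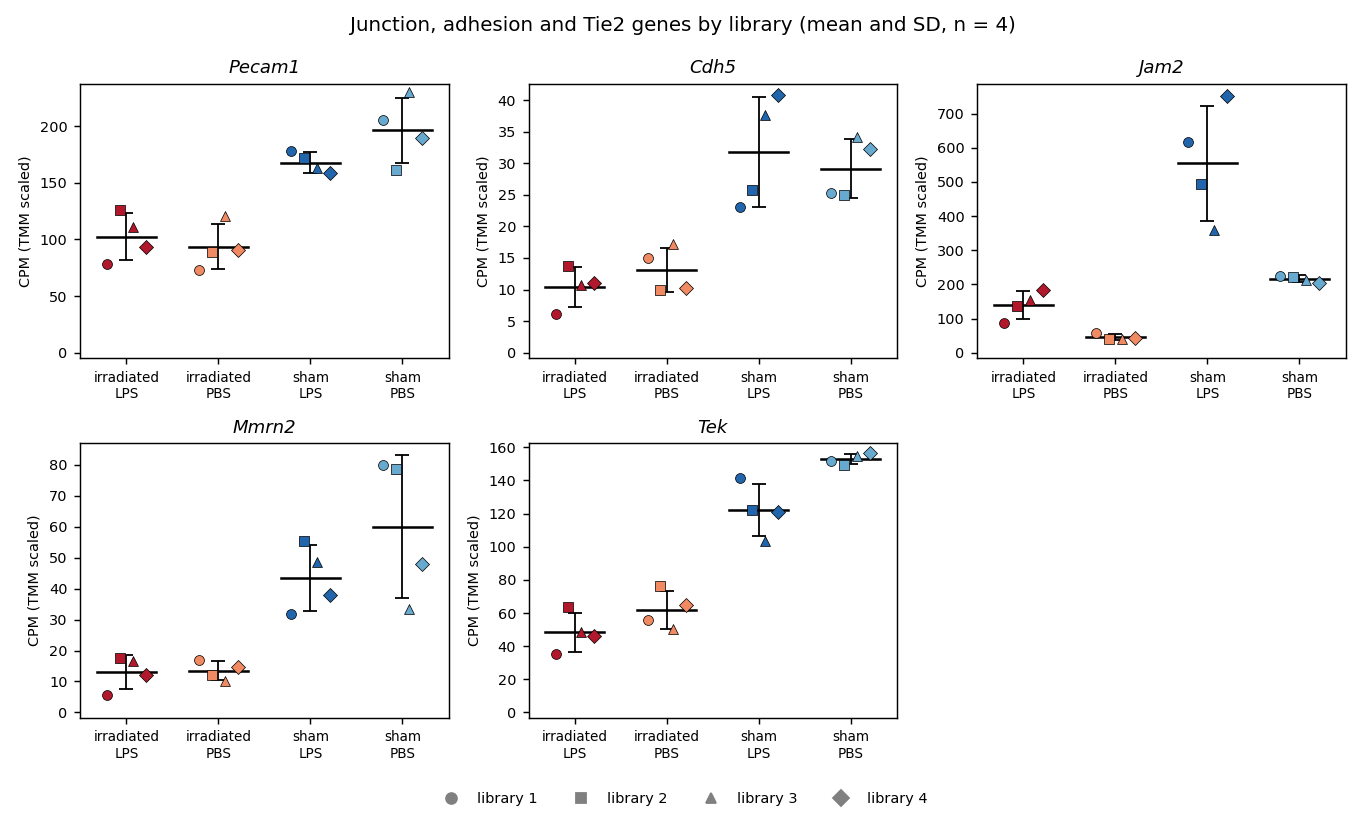
CPM (vertical axes, TMM scaled) of Pecam1, Cdh5, Jam2, Mmrn2 and Tek in each library, by group, with the group mean as a line and the SD as a bar (n = 4). For all 5 genes every irradiated library lies below every sham library given the same injection, and the LPS libraries of Jam2 lie above its PBS libraries in irradiated and in sham rats.

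The 3 receptor genes did not move alike. Tek (ENSRNOG00000008587) encodes Tie2, the receptor of the angiopoietins. It had 56.0, 76.0, 50.5 and 64.9 CPM in irradiated PBS libraries and 151.5, 149.5, 154.8 and 156.3 CPM in sham PBS libraries. With LPS it had 35.0, 63.5, 48.6 and 46.0 CPM in irradiated libraries and 141.4, 122.3, 103.6 and 121.2 CPM in sham libraries. The sham PBS libraries differed by less than 10 CPM among themselves, and every irradiated library lay below every sham library. Tek fell by 1.31 ± 0.15 on the log2 scale with PBS (2.47-fold lower, adjusted p = 6.33e-06) and by 1.34 ± 0.15 with LPS (2.52-fold lower, adjusted p = 3.06e-06). All 4 sham LPS libraries were lower than all 4 sham PBS libraries, but the log2 fold change of -0.33 ± 0.15 did not pass the test (adjusted p = 0.114). A fit of the 2 sham groups alone gave -0.31 with an adjusted p of 0.0340, which would be a call. In irradiated rats LPS gave -0.35 ± 0.15 (adjusted p = 0.0838), which became a call with library totals in place of TMM factors (-0.48, adjusted p = 0.0222), without irradiated LPS library 2 (-0.52, adjusted p = 0.0115) and without irradiated PBS library 3 (-0.44, adjusted p = 0.0465).

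Flt1 (ENSRNOG00000000940) encodes VEGF receptor 1, which binds VEGF-A, VEGF-B and placental growth factor. It was high in the irradiated LPS group: 9.28, 7.04, 15.57 and 14.71 CPM, against 2.05, 0.61, 4.28 and 2.04 CPM in irradiated PBS libraries. In sham rats it had 1.82, 1.66, 5.22 and 1.10 CPM with LPS and 2.01, 1.59, 0.60 and 1.34 CPM with PBS. All 4 irradiated LPS libraries were higher than the other 12, which overlapped with each other. Flt1 rose by 2.25 ± 0.53 between irradiated and sham rats given LPS (adjusted p = 0.00391), and by 2.37 ± 0.54 between LPS and PBS in irradiated rats (adjusted p = 0.00243). These comparisons share the irradiated LPS libraries. Irradiated and sham rats given PBS differed by 0.71 ± 0.54 (adjusted p = 0.399), and LPS and PBS in sham rats by 0.83 ± 0.55 (adjusted p = 0.279). The difference of the LPS responses was 1.54 ± 0.75, with an unadjusted p of 0.0568 and an adjusted p of 0.445, so a larger response in irradiated rats was not shown.

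Kdr (ENSRNOG00000046829) encodes VEGF receptor 2, the main signalling receptor of VEGF-A in vessels, and was near the limit of counting. Its raw counts were 15, 67, 2 and 37 in irradiated LPS libraries and 13, 18, 31 and 20 in irradiated PBS libraries, against 0, 2, 3 and 0 in sham LPS and 0, 0, 0 and 6 in sham PBS libraries. Summed over a group these are 121 and 82 counts in irradiated LPS and irradiated PBS, and 5 and 6 counts in sham LPS and sham PBS. Kdr passed the filter on low counts through the irradiated groups, so a difference was built into its entry. The irradiated PBS libraries had 0.729 to 1.49 CPM and the sham PBS libraries 0 to 0.297 CPM, without overlap. The irradiated LPS libraries had 0.0623 to 1.09 CPM and the sham LPS libraries 0 to 0.172 CPM, with library 3 of irradiated LPS inside the sham range. The fitted log2 fold change was 3.64 ± 1.14 with PBS (adjusted p = 0.0282) and 3.27 ± 1.15 with LPS (adjusted p = 0.0412), and it depends on the prior count because most sham libraries are at 0. The PBS call was lost without sham PBS library 1, 2 or 3 or irradiated PBS library 3 (adjusted p 0.0778, 0.0825, 0.0811 and 0.0648), and the LPS call was lost in 13 of 25 alternatives (adjusted p up to 0.106).

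**Figure D3:**
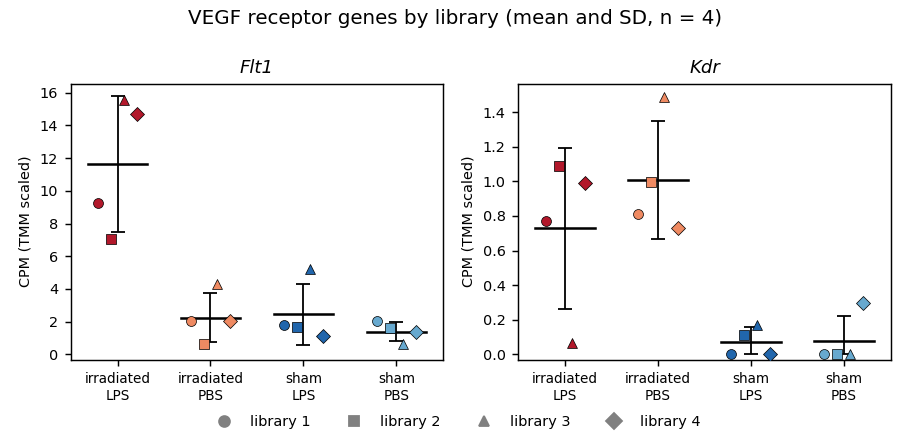
CPM (vertical axes, TMM scaled) of Flt1 and Kdr in each library, by group, with the group mean as a line and the SD as a bar (n = 4, bars end at 0). Flt1 is at 7.04 CPM or more in irradiated LPS and at 5.22 CPM or less in the other 3 groups, and Kdr is at 1.49 CPM or less in all libraries.

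The type IV collagen genes spread widely between libraries of a group. Col4a1 (ENSRNOG00000016281) and Col4a2 (ENSRNOG00000023972) encode the chains that form the collagen network of nearly all basement membranes. Col4a1 had 17.73, 10.38, 29.19 and 31.17 CPM in irradiated PBS libraries, and 59.55, 94.19, 6.12 and 17.82 CPM in sham PBS libraries. With LPS it had 3.74, 8.35, 15.61 and 10.04 CPM in irradiated libraries, and 42.73, 69.49, 35.54 and 50.69 CPM in sham libraries. The PBS groups overlapped because sham PBS libraries 3 and 4 were low, whereas with LPS every irradiated library was lower than every sham library.

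Col4a2 followed the same libraries. It had 12.19, 5.38, 17.80 and 18.05 CPM in irradiated PBS, and 23.30, 55.92, 4.14 and 9.30 CPM in sham PBS libraries. With LPS it had 3.59, 3.99, 12.09 and 2.9 CPM in irradiated libraries and 32.71, 46.95, 23.04 and 33.39 CPM in sham libraries. With LPS, irradiated rats had lower Col4a1 (-2.38 ± 0.70, 5.22-fold lower, adjusted p = 0.0211) and Col4a2 (-2.59 ± 0.71, 6.03-fold lower, adjusted p = 0.0148). With PBS the values were -0.999 ± 0.67 (interval -2.31 to 0.31, adjusted p = 0.338) and -0.79 ± 0.68 (interval -2.12 to 0.54, adjusted p = 0.466), intervals that hold both no change and decreases of over 2 on the log2 scale. LPS against PBS gave -1.22 ± 0.68 for Col4a1 and -1.25 ± 0.70 for Col4a2 in irradiated rats (adjusted p = 0.201 for each), and 0.16 ± 0.66 and 0.56 ± 0.67 in sham rats.

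The calls of the collagens between irradiated and sham rats given LPS were lost in some fits with fewer libraries. That of Col4a1 was lost without the 2 irradiated libraries numbered 1 (-2.12, adjusted p = 0.0719), without irradiated LPS library 1 (0.0595), 2 (0.0543) or 4 (0.0521) and without sham LPS library 2 (0.0521). That of Col4a2 was lost without both irradiated libraries numbered 1 (-2.43, adjusted p = 0.0595). Over all 27 alternatives the log2 fold change stayed between -2.72 and -2.12 for Col4a1 and between -3.28 and -2.37 for Col4a2. The Col4a2 difference with PBS turned to 0.14 without sham PBS library 2, the library with the highest level of both genes. Within a library the chains kept together: Col4a1 had 1.04 to 3.46 counts per count of Col4a2 over the 16 libraries, with a median of 1.59, while the level of Col4a1 ran between 3.74 and 94.2 CPM. The ratio was 1.97 ± 1.09 in irradiated LPS, 1.69 ± 0.20 in irradiated PBS, 1.46 ± 0.11 in sham LPS and 1.91 ± 0.47 in sham PBS (SD, n = 4), and is a ratio of reads with no correction for gene length.

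**Figure D4:**
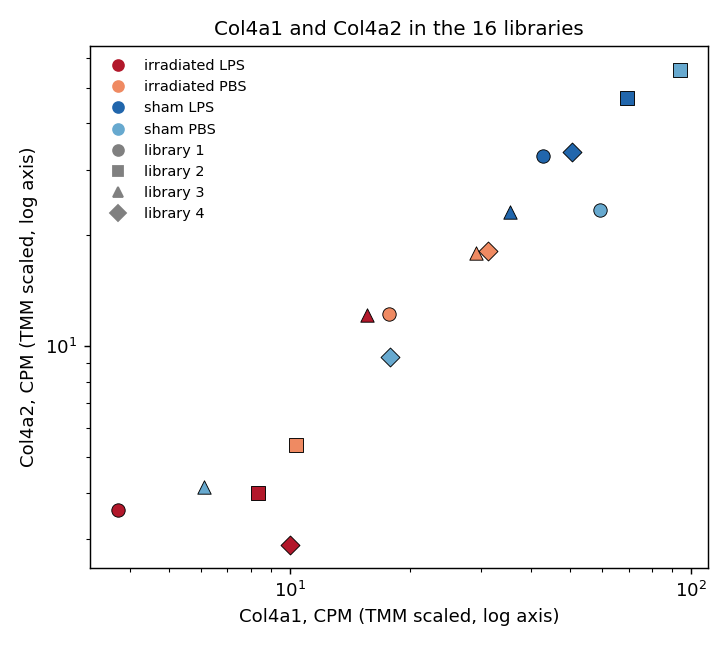
CPM of Col4a2 (vertical, log axis) against CPM of Col4a1 (horizontal, log axis) in the 16 libraries, coloured by group and shaped by library number. Sham PBS libraries spread between 6.12 and 94.19 CPM of Col4a1 and between 4.14 and 55.92 CPM of Col4a2, and all 4 irradiated LPS libraries lie below all 4 sham LPS libraries on both axes.

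None of the 9 genes had LPS responses that differed between irradiated and sham rats by edgeR's test, where 1.26% of all genes did (0.647% lower, 0.610% higher), and none had an unadjusted p under 0.05. Limma voom also called 0 of the 9, and DESeq2 called 0 of the other 8 and gave no value for Kdr. The largest differences were -1.80 ± 0.97 for Col4a2 (adjusted p = 0.516) and 1.54 ± 0.75 for Flt1. The standard errors of Flt1, Kdr and the collagens, between 0.75 and 1.71, leave room for differences of several fold, and those of Pecam1 and Tek, both 0.21, for less than 0.8 on the log2 scale.

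The genes were compared with one another by their levels over the 16 libraries. Likeness was measured as the root mean square difference of log2 CPM, each gene centred on its own mean, and is a description, since libraries share group and depth. The closest pairs were Pecam1 and Tek (0.36), Col4a1 and Col4a2 (0.39), and Cdh5 and Tek (0.41). Flt1 and Kdr were far from all others, at 1.66 or more, including from each other (1.70). The measure also grows with how much a gene varies. The root mean square deviation from the own mean was 0.51 for Pecam1 and 0.72 for Tek, against 1.38 for Flt1 and 1.61 for Kdr. Of 12399 tested genes with a symbol, those most like Pecam1 were Rnf13, Lamp2 and Cnp (0.17, 0.17 and 0.19), and those most like Tek were Tgfbr1, Ptgs1 and Numb (0.20, 0.20 and 0.21). Cdh5 was nearest to Fam124a, Epdr1 and Cst3 (0.29, 0.29 and 0.33), Mmrn2 was close to Atp8a2 and Pls3 (0.49 and 0.51), and Jam2 was nearest to Kcnj15, Serinc5 and Trim55 (0.43, 0.52 and 0.53). The nearest to Flt1 were Serping1, MGC105567 and Gbp5 (0.60, 0.69 and 0.70), and to Kdr Hoxb4, Acp3 and Ms4a14 (0.79, 0.80 and 0.81). Col4a1 and Col4a2 were each other's nearest gene of all 12399, and the next for Col4a2 was Rpgrip1 (0.86).

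Further junction and adhesion genes were counted as a list of 28, of which 20 were tested. With PBS 4 fell and 2 rose between irradiated and sham rats, with LPS 4 fell and 4 rose, and the list's medians of 0.05 and -0.07 lay near those of all genes. Background shares were 9.91% lower and 11.5% higher with PBS, and 12.6% lower and 15.1% higher with LPS. They apply to the lists below as well, and an excess over them was not tested. F11r, the junctional adhesion molecule A gene, had 345 to 488 CPM in irradiated PBS and 1112 to 1289.8 CPM in sham PBS libraries, and fell by 1.54 ± 0.12 with PBS and by 1.61 ± 0.12 with LPS. Jup, which encodes the cadherin-binding protein plakoglobin, fell by 0.99 ± 0.11 and 1.18 ± 0.11. Icam2, an integrin ligand of endothelium and leukocytes, rose by 2.11 ± 0.24 and 1.94 ± 0.24. LPS raised Icam1, a leukocyte adhesion receptor, by 1.94 ± 0.12 in irradiated and by 1.86 ± 0.12 in sham rats. The junction genes Jam3 and Esam, at no more than 0.939 and 6.85 CPM, were called in no comparison.

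Genes of VEGF, angiopoietin and Notch signalling were called in both directions. Of 23 listed genes 11 were tested, and between irradiated and sham rats 3 rose and 2 fell with PBS and 5 rose and 3 fell with LPS, with medians of -0.03 and -0.10. The share over all genes was 21.4% called with PBS and 27.7% with LPS. Vegfa and Vegfc, ligands of the VEGF receptors, did not pass 0.442 and 0.365 CPM and were not tested, and Vegfb, which binds VEGF receptor 1, was between 0.516 and 4.88 CPM with no call. Nrp1, the neuropilin co-receptor, rose by 1.84 ± 0.23 with PBS and 2.07 ± 0.24 with LPS. It had 190 to 286 CPM in irradiated PBS and 48.9 to 78.4 CPM in sham PBS libraries, and after LPS it fell by 1.37 in irradiated and by 1.60 in sham rats. The angiopoietin ligand gene Angpt4 fell by 0.48 ± 0.10 and 0.66 ± 0.10 after irradiation. Tie1, the partner of Tie2, which was picked after its values were seen, had -0.54 ± 0.27 with PBS (adjusted p = 0.179) and -0.39 ± 0.27 with LPS (adjusted p = 0.328). The Notch ligand gene Jag1 rose by 2.16 ± 0.37 and 3.05 ± 0.35, and the receptor gene Notch4 fell by 1.38 ± 0.16 and 1.16 ± 0.16.

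The remaining endothelial identity genes, 15 of which were tested, fell in 7 and rose in 1 case with PBS and fell in 5 and rose in 3 with LPS. Their medians were -0.48 and -0.07, and 21.4% and 27.7% of all genes were called in these comparisons. The summed level of the list was 1340 to 1721 CPM in irradiated PBS and 2044 to 2416 CPM in sham PBS libraries, and 1498 to 1640 CPM in irradiated LPS and 1862 to 2248 CPM in sham LPS libraries. These sums are carried by the most abundant genes, such as Pltp (up to 1450 CPM), Abcg2 (327 CPM) and Eng (299 CPM). The 11 genes that stayed below 1 CPM hardly enter them. Eng, the TGF-beta co-receptor endoglin, had 109 to 151 CPM in irradiated PBS and 260 to 299 CPM in sham PBS libraries and fell by 1.09 ± 0.13. Ets1, an ETS-family transcription factor, fell by 0.63 ± 0.14 with PBS and by 1.05 ± 0.14 with LPS. Fli1, another, did not pass the test between irradiated and sham rats (-0.12 ± 0.11 and -0.05 ± 0.11) and fell after LPS, by 0.80 ± 0.11 in irradiated and by 0.88 ± 0.11 in sham rats. Many of these genes are also transcribed in haematopoietic cells.

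Of 16 tested basement membrane genes, 3 were called lower and 1 higher between irradiated and sham rats with PBS, and 2 lower and 0 higher with LPS, with medians of -0.20 and -0.28. All genes had 21.4% called with PBS and 27.7% with LPS. Counts near or below those shares are not read as an effect on the list. The further type IV chains Col4a3 and Col4a4 were not called in any comparison, at 0.256 to 4.17 CPM and 4.41 to 14.2 CPM, and Col4a5 did not pass 0.322 CPM. Sparc, which binds type IV collagen and is also on the microglial list, had 3950.3 to 4716 CPM in irradiated PBS and 6803 to 7541 CPM in sham PBS libraries. It fell by 0.73 ± 0.11 with PBS and by 0.84 ± 0.11 with LPS. Col15a1, a collagen of basement membrane zones, fell by 1.24 ± 0.23 and 1.21 ± 0.23. The fibronectin gene Fn1, which is also on the monocyte list, rose by 2.49 ± 0.66 with PBS, at 3.55 to 14.2 CPM in irradiated and 0.0608 to 2.67 CPM in sham libraries.

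Genes that build and degrade collagen changed in both directions. Of 19 tested, 5 rose and 4 fell with PBS and 6 rose and 6 fell with LPS between irradiated and sham rats, and the medians were 0.28 and 0.06. P4ha1, a catalytic subunit of the prolyl hydroxylase that stabilises collagen chains, fell by 1.05 ± 0.07 and 1.27 ± 0.07, with 359 to 401 CPM in irradiated PBS and 748 to 811 CPM in sham PBS libraries. The elastase gene Mmp12 rose by 3.89 ± 0.55 and 4.92 ± 0.58. Timp1, an inhibitor of matrix metalloproteinases, rose by 1.61 ± 0.28 and 1.39 ± 0.26. Of 13 tested receptors for basement membrane components, 4 rose and 2 fell with PBS and 4 rose and 6 fell with LPS. Beside the counts of both lists, 21.4% of all genes were called with PBS and 27.7% with LPS. Cd44, the hyaluronan receptor, which is also on the monocyte list, rose by 2.64 ± 0.28 and 2.82 ± 0.27. Itga6, an integrin chain for laminin, fell by 0.71 ± 0.10 and 0.88 ± 0.10. The LPS responses of 2 receptor genes were called lower in irradiated than in sham rats, Sdc1 (-2.05 ± 0.34) and Itgav (-1.07 ± 0.16). Of the endothelial identity list, that of the glucose transporter gene Slc2a1 was called higher (1.15 ± 0.22).

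**Figure D5:**
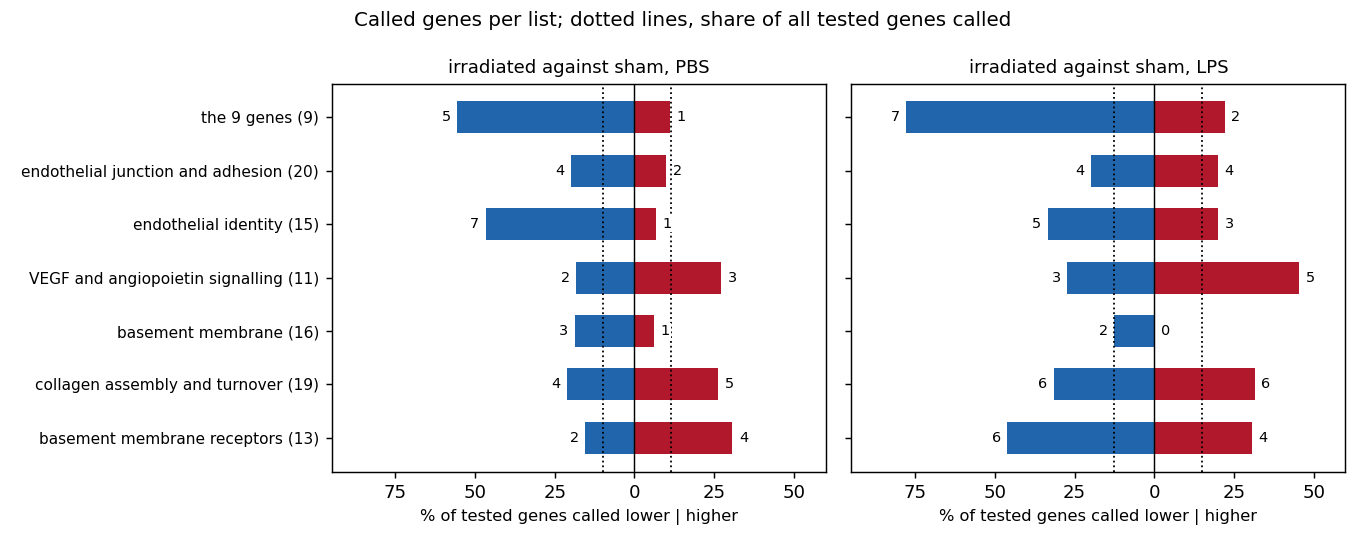
Percent of the tested genes of each list called lower (left of 0) and higher (right of 0) between irradiated and sham rats, with the number of genes at each bar, the number tested in brackets and the share of all 13608 genes as dotted lines. The 9 genes have 5 lower and 1 higher with PBS and 7 lower and 2 higher with LPS.

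Markers of several other cell types moved in the same comparisons, where 21.4% of all genes were called with PBS and 27.7% with LPS. Of 10 tested microglial identity genes 9 fell and 0 rose between irradiated and sham rats with either injection, with medians of -1.06 with PBS and -1.37 with LPS. Their summed level was 24572 to 30913 CPM in irradiated PBS and 52832 to 56495 CPM in sham PBS libraries, and 17961 to 23809 CPM in irradiated LPS and 44385 to 47894 CPM in sham LPS libraries. Border macrophage genes rose in 7 of 8 cases with either injection, with summed levels of 1197 to 1514 CPM in irradiated PBS and 376 to 433 CPM in sham PBS libraries, and of 3063 to 4244 CPM in irradiated LPS and 470 to 1026 CPM in sham LPS libraries. Of 8 monocyte genes 6 rose with either injection, and of 10 T and NK cell genes 10 rose with PBS and 9 with LPS. The T and NK cell genes summed to 95 to 186 CPM in irradiated PBS and 13.4 to 22.4 CPM in sham PBS libraries, and to 516 to 1028 CPM in irradiated LPS and 19.9 to 190 CPM in sham LPS libraries. Neutrophil genes rose in 6 of 7 cases with LPS, and with PBS 1 rose and 1 fell. Their sum was 2111 CPM in irradiated LPS 1 and 359 to 553 CPM in the other irradiated LPS libraries, against 243 to 290 CPM in sham LPS libraries, and 228 to 300.2 CPM in irradiated PBS and 322 to 402 CPM in sham PBS libraries. Csf3r, which fell by 0.63 ± 0.08 with PBS, had the highest mean of the list, 7.87 log2 CPM against 4.77 for S100a9. The sums of PBS libraries thus mostly follow Csf3r. Cxcr2 rose with PBS (2.56 ± 0.48), and S100a8 and S100a9 had no call (0.68 ± 1.04 and 1.01 ± 1.08). Of 4 tested platelet genes, whose sum was 5.41 to 9.43 CPM in irradiated PBS and 13.1 to 19.2 CPM in sham PBS libraries, 1 fell and 1 rose with PBS. With LPS 1 fell, Treml1 (-2.50 ± 0.37, adjusted p = 4.99e-05), and the sums were 4.24 to 5.84 CPM in irradiated and 9.94 to 14.2 CPM in sham libraries. Treml1, also the gene that fell with PBS, reached 16.9 CPM, and no other platelet gene passed 2.48 CPM. The gene that rose with PBS was Gp9 (2.45 ± 0.82), so the platelet sums do not stand for the list as a whole. Of 5 tested pericyte and smooth muscle genes 2 rose with PBS, and 1 rose and 1 fell with LPS, with sums of 32.7 to 50.5 CPM in irradiated PBS and 41.96 to 50.9 CPM in sham PBS libraries, and 37.8 to 59.2 CPM in irradiated LPS and 48.5 to 105.5 CPM in sham LPS libraries. Cspg4, the gene of these that fell, reached 98.2 CPM, and no other gene of that list passed 15.2 CPM. Of 4 tested fibroblast genes 1 rose with PBS, and their list summed to no more than 10.3 CPM in any library. Astrocyte genes had 1 of 8 higher and 1 lower with either injection, oligodendrocyte genes 1 of 9 higher and 1 lower with PBS and 1 lower with LPS, and B cell genes 1 of 4 higher with PBS and 2 with LPS. The astrocyte and oligodendrocyte counts were near or below the shares over all genes. No tested neuronal or red cell gene was called between irradiated and sham rats. Red cell genes summed to 10.2 to 153.6 CPM in irradiated LPS, 8.55 to 27.0 CPM in irradiated PBS, 18.7 to 63.8 CPM in sham LPS and 7.66 to 61.4 CPM in sham PBS libraries. The part of these shifts in the values of Pecam1, Tek, Flt1 and the other genes was not tested.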

How the data were processed

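Total RNA of sorted cells was sequenced with a low-input kit on a NovaSeq, per the labels. The authors deposited integer read counts for 30560 Ensembl gene IDs, made with FastQC 0.11.9, fastp 0.23.2 and HTSeq 2.0.2 on mRatBN7.2, per the submitters' processing notes. The aligner, the annotation release and the strand setting are not given in the sources consulted, so reads from genes that overlap on opposite strands may be mixed. In the deposited table per symbol, 0 of 349472 values differed from the sample files.

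Tests used R 4.3.3 and edgeR 4.0.16: TMM, filterByExpr, a robust quasi-likelihood model with a coefficient for each group over all 16 libraries (common biological coefficient of variation 0.289), and Benjamini-Hochberg adjustment over 13608 genes. An SE is the log2 fold change divided by the square root of F, and 95% intervals assume a normal error. DESeq2 1.42.0 and limma 3.58.1 (voom) served as alternatives. Log2 CPM for likeness had a prior count of 2. Calculations were tested on simulated data. Replicates differed beyond counting error (chi-square over its degrees of freedom between 18.9 and 83.0 in 24 pairs).

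The 10 genes and the 19 further lists were chosen with earlier results of these data known. Besides the 10, the text names up to 4 called genes of smallest adjusted p per list and comparison, the leading 3 of a list, the 3 genes most like each member (some of which are not reported here), and any that it says were picked after their values were seen.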

Additional observations from a re-analysis of the deposited data

Results flagged for a closer look

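In 2 of 36 groups of 4 libraries (9 genes in 4 groups) a library lay far from the other 3, judged by the gap to its neighbour over the range of the group, and chance gives about 1 such group in 20. Both concern Kdr. In irradiated LPS, library 3 had 0.0623 CPM (2 counts), and the other 3 had 0.769 to 1.09 CPM. In sham PBS, library 4 had 0.297 CPM (6 counts), and the other 3 had none.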

How the results depend on the processing

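Pecam1, Cdh5, Jam2, Mmrn2 and Tek kept their direction and their call in both irradiation comparisons under all 27 alternatives, as did Jam2 after LPS in irradiated and in sham rats, and Flt1 in its 2 called comparisons. Over all genes and comparisons 1147 of 1198 alternative values kept direction and call, 24 lost a call, 4 gained one and 23 changed sign, and the cause was not tested. All changes of sign were in values that had no call. Scaling by library totals moved the median of all genes by 0.156 (irradiated against sham, PBS) and -0.118 (LPS against PBS, irradiated). Without both irradiated libraries numbered 1, Mmrn2 after LPS in irradiated rats was 0.33 and the difference of LPS responses of Tek 0.055. Kdr after LPS in sham rats was 0.46 with limma voom weights. Leaving out single libraries gave ranges of -1.14 to 0.14 for Col4a2 between irradiated and sham rats given PBS, -0.21 to 0.20 for Mmrn2 after LPS in irradiated rats, and, after LPS in sham rats, -0.019 to 0.25 for Cdh5, -0.92 to 3.88 for Kdr and -0.21 to 0.84 for Col4a1. For the difference of the LPS responses they gave -0.18 to 0.10 for Tek and -4.33 to 0.46 for Kdr. Members called after LPS in sham rats were 2 with only the groups compared. All genes called for the difference of the LPS responses were 171, but 427 with DESeq2, 98 without both irradiated libraries numbered 1, and 103 to 191 without single libraries. Kdr had no value with at least 10 counts required in at least 8 libraries, or with DESeq2 for the difference of the LPS responses. With only the groups compared it had none between irradiated and sham rats given LPS, and none after LPS in sham rats. For Kdr and Flt1, depth sets the limit, since 3 counts equal 0.0487 to 0.187 CPM.

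Replicate numbers are shared between groups, and the labels do not say what they stand for. Same-numbered libraries correlated at -0.089 to 0.405, over 0.1 in 10 of 24 pairs, and differently numbered ones at -0.287 to 0.199. Of 16 libraries 11 correlated best with their own number. With the replicate block, members called were 6 with PBS and 7 with LPS between irradiated and sham rats, 2 and 1 after LPS in irradiated and sham rats, and 0 for the difference. Col4a1 and Kdr lost their calls between irradiated and sham rats given LPS under the block (adjusted p = 0.0538 and 0.0713). Kdr after LPS in sham rats was 0.14 under the block.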
